A study of Mus musculus with 10 samples.

Results

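Purinergic inhibition of gut muscle was followed here through 8 genes: the receptors *P2ry1*, *P2ry14*, *P2rx1* and *P2rx4*, the SK channels *Kcnn2* and *Kcnn3*, and the ATP-degrading enzymes *Entpd1* and *Entpd2*. The members were chosen by name, as every transcript variant listed under 1 of these symbols, and all 8 of the 8 had rows in each of the 3 deposited tables, out of 19214 gene symbols in all. The level of a gene is the sum of its variants in FPKM, the number of fragments scaled to transcript length and to library size, so levels of different genes are compared per length.

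The series holds 10 mouse RNA-seq libraries, 1 per condition, from mice 4 weeks old on a C57BL/6 background. Smooth muscle cells (SMCs) were sorted from smMHCCre-eGFP/+ mice, in which the smooth muscle myosin promoter drives Cre and eGFP. Interstitial cells of Cajal (ICC) were sorted from KitcopGFP/+ mice, and the unsorted smooth muscle (SM) tissue of both organs is listed under the same strain, although the study's methods describe SM tissue of smMHC Cre-eGFP/+ mice. PDGFRα+ cells of jejunum, colon and colonic mucosa, and whole colonic mucosa, came from PdgfraeGFP/+ mice. Both reporters are knock-ins, so these mice keep 1 intact allele of *Kit* or of *Pdgfra*. By these labels ICC and mucosal PDGFRα+ cells share a strain with the tissue they are compared with, while SMCs and muscle PDGFRα+ cells do not. In the ratios of the latter to tissue, and in those between SMCs, ICC and PDGFRα+ cells, strain and cell type cannot be told apart. The SMCs were a single pool from many mice, and with 1 library per condition there is no replicate error, so every value below is a description without a test. The files give no counts. Steps among their lowest values put 1 fragment at 0.00898 to 0.0160 FPKM over 1 kb of transcript, which would make about 62300000 to 111000000 fragments per library. Of the low values 76.7% to 86.1% lay within 0.25 of 1 or 2 such steps. The step was chosen to fit these same values, so this share is no separate check of it. By this estimate 8 of the 80 member values rested on fewer than 100 fragments, among them *P2rx1* with an estimated 30.8 in jejunal SM tissue, *P2ry14* with 84.0 in jejunal ICC and *Kcnn2* with 9.84 in mucosa.

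ATP and related nucleotides are released in the gut wall as inhibitory transmitters. P2Y1, the product of *P2ry1*, couples through Gq and phospholipase C to release calcium from stores, and the calcium opens small-conductance (SK) potassium channels, which hyperpolarize the cell and relax the electrically coupled muscle. PDGFRα+ cells of the muscle layer are known as a main site of this response, with SK3, the product of *Kcnn3*, as its channel. P2X receptors are cation channels opened by ATP, and the surface enzymes encoded by *Entpd1* (CD39) and *Entpd2* remove ATP and ADP from the outside of the cell.

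Before the levels, 2 libraries need a remark. The library labelled jejunal PDGFRα+ cells went against its label: *Pdgfra* stood at 34.0 FPKM there and at 57.0 in jejunal SM tissue, *Myh11*, the smooth muscle myosin heavy chain, at 1677 and 3370, and *Uchl1*, a neuron gene, at 219 and 119. It is called the library labelled jejunal PDGFRα+ cells throughout, and the counts that rest on it are given with and without it. Colonic PDGFRα+ cells carried *Pdgfra* at 230 FPKM against 47.4 in colonic SM tissue, with *Myh11* at 134 and *Uchl1* at 20.6. PDGFRα+ cells of the mucosa had *Pdgfra* at 228 FPKM, but also *Epcam*, an epithelial gene, at 144 FPKM, and the 11 epithelial markers summed to 2434 FPKM there and to 10185 in whole mucosa. The ICC markers *Kit* and *Ano1* reached 468 and 703 FPKM in jejunal ICC, and 792 and 1068 in colonic ICC. In unsorted tissue, fewer cells of a type and less RNA per cell cannot be told apart.

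*P2ry1* and *Kcnn3*, the receptor and the channel of the inhibitory response, had their highest level in the same library, colonic PDGFRα+ cells. The stretches of 250 bases before their start sites are shown because both genes stood at least 4-fold above tissue in that library. Both are on chromosome 3, and the sequences are those of RefSeq on GRCm38.p6, plus strand, chr3:61002535-61002784 for *P2ry1* and chr3:89519914-89520163 for *Kcnn3*. Capitals mark matches on either strand to GGGCGG, the GC box, or to CCAAT, and no base belongs to both.
P2ry1: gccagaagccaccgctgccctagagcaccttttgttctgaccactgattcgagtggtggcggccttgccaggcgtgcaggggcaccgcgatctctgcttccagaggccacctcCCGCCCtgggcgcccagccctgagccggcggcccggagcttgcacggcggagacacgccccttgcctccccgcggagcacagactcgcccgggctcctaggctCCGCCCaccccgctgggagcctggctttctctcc
Kcnn3: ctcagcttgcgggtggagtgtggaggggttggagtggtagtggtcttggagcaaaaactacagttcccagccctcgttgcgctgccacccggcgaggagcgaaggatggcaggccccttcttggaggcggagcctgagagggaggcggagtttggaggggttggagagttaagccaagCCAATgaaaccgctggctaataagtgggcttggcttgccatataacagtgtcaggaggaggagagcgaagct
The *P2ry1* stretch held 2 matches to GGGCGG on the minus strand, 137 to 132 and 34 to 29 bases before the start, and none to CCAAT. The *Kcnn3* stretch held 1 match to CCAAT, 72 to 68 bases before the start, and none to GGGCGG. Neither held TATAAA or an exact match to the CArG box consensus, the element bound by SRF in muscle genes, and boxes that deviate from the consensus were not searched. Among all 32851 promoter windows of the same length, GGGCGG was in 32.7%, CCAAT in 33.8%, TATAAA in 12.4% and an exact CArG box in 1.47%, so the motifs found were common ones. G and C made up 70.8% of the *P2ry1* stretch and 58.8% of the *Kcnn3* stretch, against a median of 52.4%. Windows of 7 of the 8 members were in that table, *Kcnn2* being the exception, and none of their 11 windows held an exact CArG box.

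*P2ry1* encodes the P2Y1 receptor for ADP and ATP and lies at chr3:60806717-60812901 on the plus strand of NCBIM37 (mm9), the build of the deposited files. Its level was 3.62 FPKM in jejunal SM tissue, 1.11 in jejunal SMCs, 0.507 in jejunal ICC and 7.09 in the library labelled jejunal PDGFRα+ cells. In colon it was 14.6 FPKM in SM tissue, 7.04 in SMCs, 5.14 in ICC, 111 in PDGFRα+ cells, 5.41 in whole mucosa and 9.52 in mucosal PDGFRα+ cells. Colonic PDGFRα+ cells thus stood apart from all other libraries, 7.57-fold above their tissue, which came next. The lowest value, in jejunal ICC, was 218-fold below it and rested on an estimated 166 fragments. In every pair of like libraries the colonic one was higher, by 4.03-fold in SM tissue, 6.32-fold in SMCs and 10.1-fold in ICC. *Pdgfra* moved with the ICC values, at 42.2 FPKM in colonic ICC, near the 47.4 of colonic SM tissue, and at 5.63 in jejunal ICC. The 6 PDGFRα+ cell markers summed to 194 and 58.9 FPKM in these ICC libraries, and their part in the *P2ry1* difference was not tested. Jejunal and colonic libraries stand in separately made tables, and this limit holds for every comparison of the organs. The order of the middle libraries is not a firm one, since SMCs of colon, the library labelled jejunal PDGFRα+ cells, mucosa and colonic ICC lay within 5.14 to 7.09 FPKM.

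*Kcnn3* encodes SK3, a potassium channel opened by calcium inside the cell, at chr3:89324086-89471683. Its level was 23.6 FPKM in jejunal SM tissue, 1.20 in jejunal SMCs, 2.85 in jejunal ICC and 21.2 in the library labelled jejunal PDGFRα+ cells. The colonic values were 23.6 FPKM in SM tissue, 0.758 in SMCs, 5.86 in ICC, 236 in PDGFRα+ cells, 0.588 in mucosa and 6.65 in mucosal PDGFRα+ cells. The 236 FPKM of colonic PDGFRα+ cells were 9.99-fold above SM tissue, 40.3-fold above ICC and 311-fold above SMCs, and placed *Kcnn3* 223rd by level among the 11364 genes at 1 FPKM or more in that library. That level was close to the 230 FPKM of *Pdgfra*, the gene behind the sort. By the ratio to SMCs it was the 4th of 11923 genes, and by the ratio to ICC the 9th of 12264. SMCs of both organs were at the other end, 19.7-fold and 31.1-fold below their tissues.

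**Figure D1:**
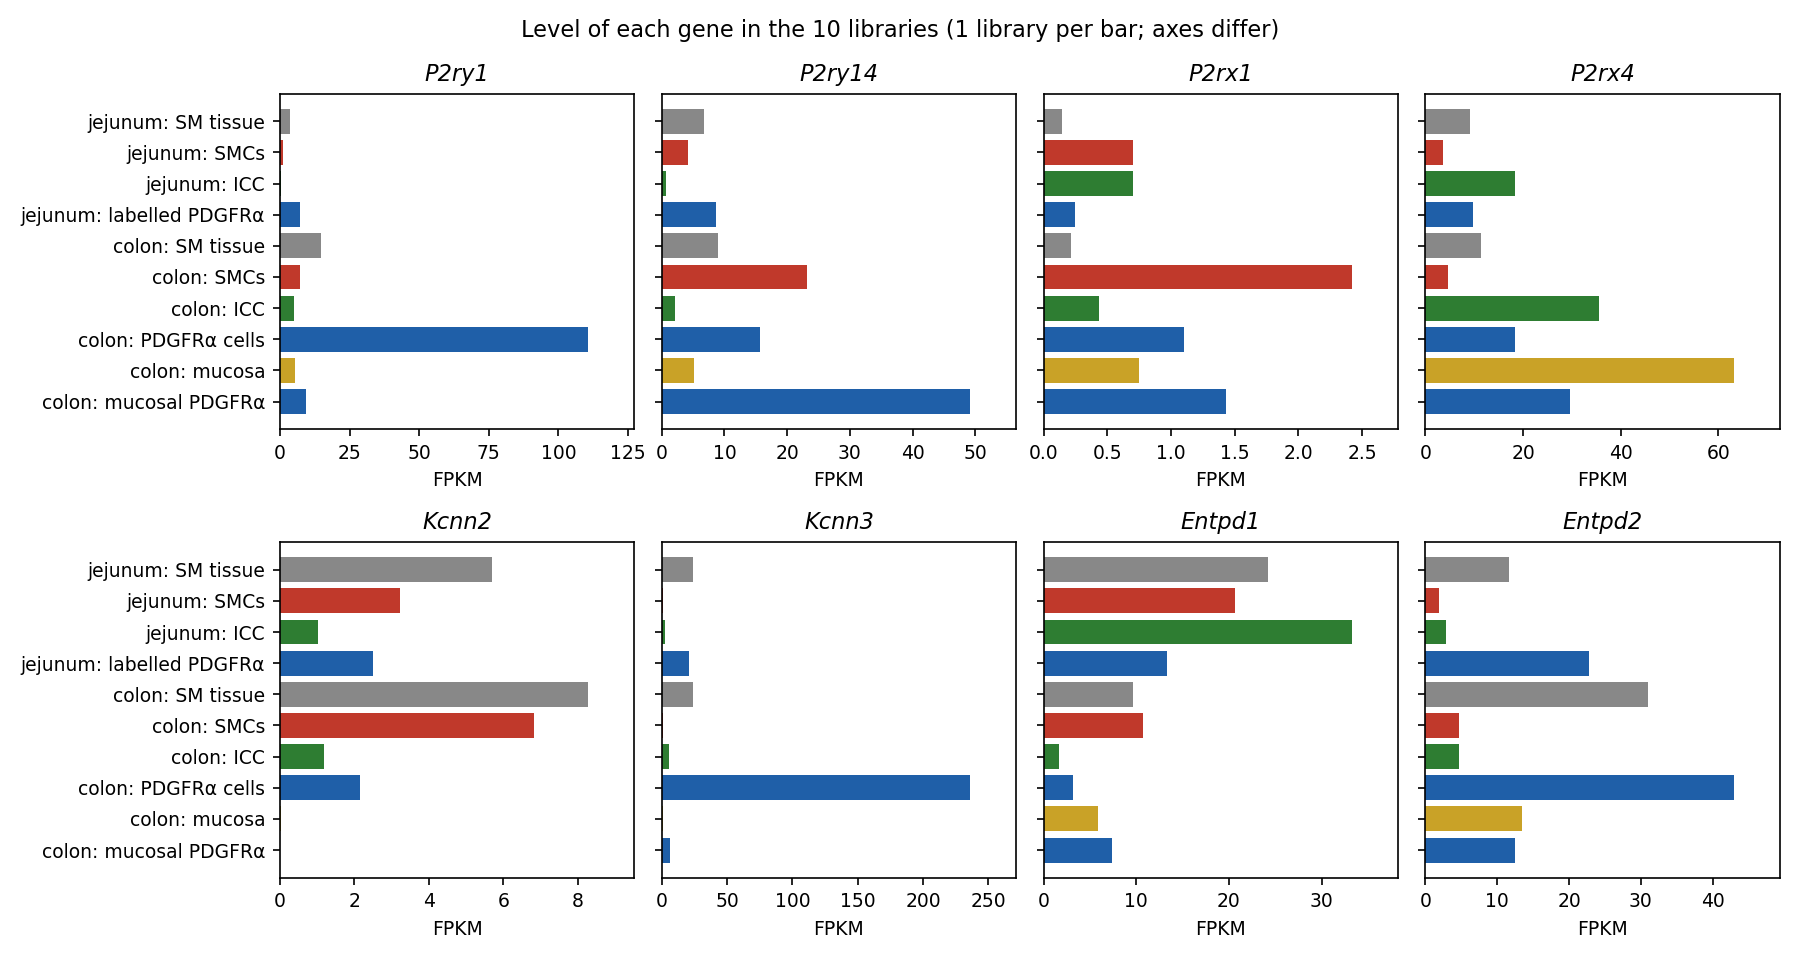
FPKM of the 8 genes (horizontal axes, linear from 0 and different in each panel) in each of the 10 libraries, 1 bar per library, coloured by kind of library. *P2ry1* at 111 and *Kcnn3* at 236 FPKM peak together in colonic PDGFRα+ cells, *P2ry14* peaks at 49.1 in mucosal PDGFRα+ cells, *P2rx4* at 63.2 in mucosa and *Entpd1* at 33.2 in jejunal ICC.

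*Kcnn2* encodes SK2, the other SK channel among the members, and it lies at chr18:45428659-45845678 in NCBIM37. It was measured at 5.69 FPKM in jejunal SM tissue, 3.23 in jejunal SMCs, 1.03 in jejunal ICC and 2.51 in the library labelled jejunal PDGFRα+ cells. In colon it stood at 8.27 FPKM in SM tissue, 6.82 in SMCs, 1.18 in ICC, 2.16 in PDGFRα+ cells and 0.0316 in mucosa, and it was listed at 0 in mucosal PDGFRα+ cells. Tissue and SMCs led in both organs, ICC were lowest within the muscle layer, and the mucosal libraries were at or near 0. SMCs were 1.76-fold below tissue in jejunum and 1.21-fold in colon. The 8 SMC markers went the other way, summing to 41022 FPKM in SMCs and 24292 in tissue of jejunum, and to 60436 and 27041 in colon. They summed to 21624 FPKM in the library labelled jejunal PDGFRα+ cells, where *Kcnn2* was 2.26-fold below tissue. The source of the tissue level was not tested. *Kcnn2* and *Kcnn3* differed in opposite directions between colonic PDGFRα+ cells and SMCs, with *Kcnn2* 3.17-fold lower and *Kcnn3* 311-fold higher in PDGFRα+ cells.

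Set against the whole channel family, the make-up of SK and IK transcripts changed with the cell type. *Kcnn1* encodes SK1 and *Kcnn4* the intermediate-conductance channel IK. *Kcnn3* made up 98.1% of the 240.5 FPKM of the 4 genes in colonic PDGFRα+ cells, 69.3% in colonic SM tissue and 75.1% in jejunal SM tissue. In SMCs the leading gene was *Kcnn2*, with 73.2% of 9.32 FPKM in colon and 51.8% of 6.23 FPKM in jejunum. *Kcnn4* held 96.3% in mucosa, at 21.0 FPKM, and 42.1% in mucosal PDGFRα+ cells, at 6.01 FPKM. The share of *Kcnn4* there moved with the epithelial markers given above, and their part in it was not tested. In ICC *Kcnn3* had the largest part, 67.5% in colon and 49.9% in jejunum, but of totals of only 8.67 and 5.71 FPKM. *Pdgfra* stood at 42.2 FPKM in colonic and 5.63 in jejunal ICC, and the part of PDGFRα+ cells in these shares was not tested.

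**Figure D2:**
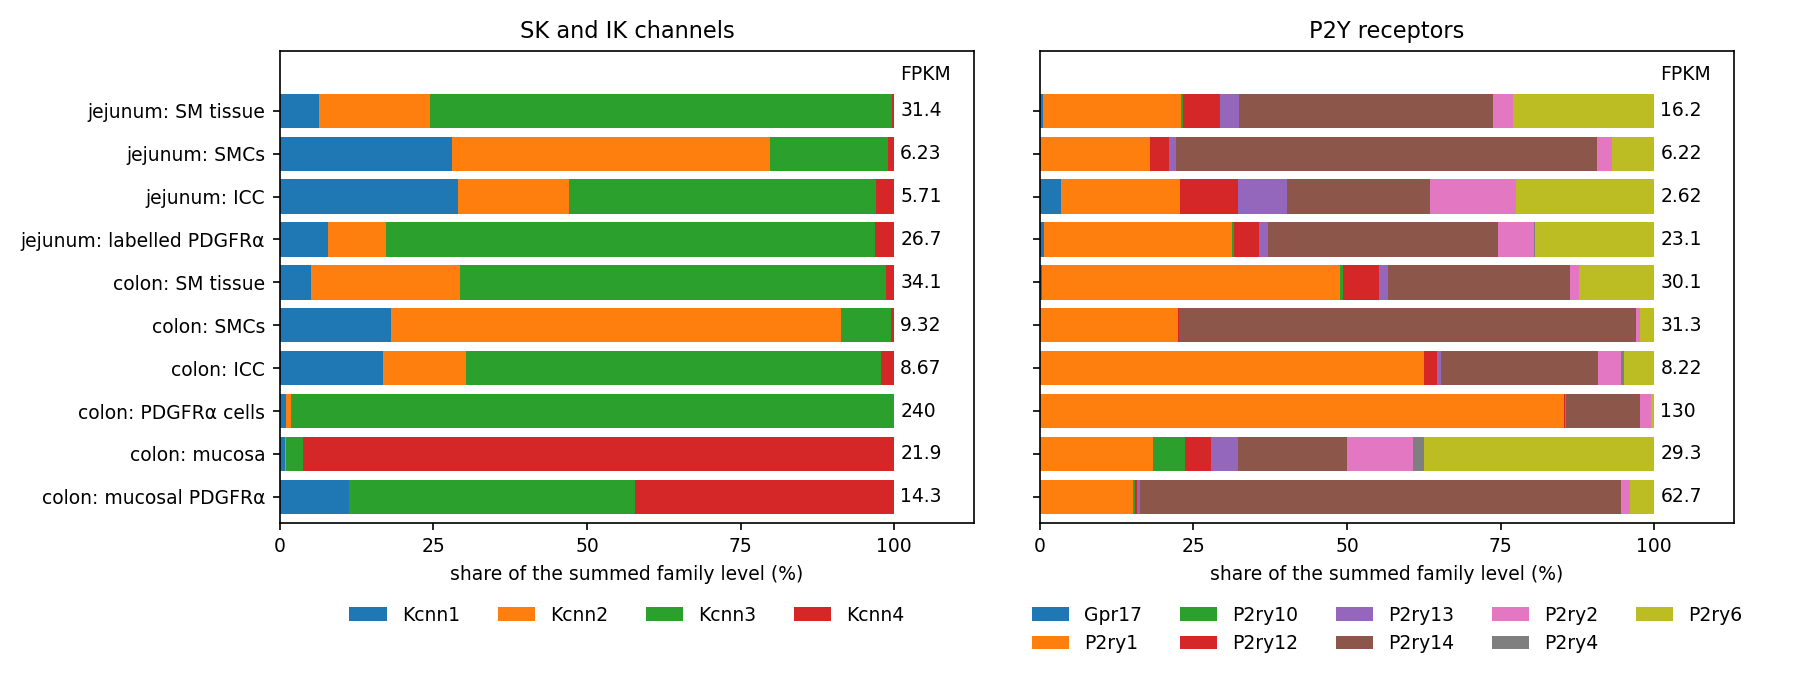
Share (%) of each gene in the summed FPKM of the SK and IK channels (left) and of the P2Y receptors (right) for the 10 libraries, with the summed FPKM at the end of each bar. *Kcnn3* fills 98.1% of the channel bar and *P2ry1* 85.3% of the receptor bar in colonic PDGFRα+ cells, while *Kcnn2* and *P2ry14* lead in SMCs.

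The variants of *Kcnn3* differed between libraries with nearly the same total. The files list up to 5 variants, each under a start site of its own: the known transcript of 11450 bases, and 4 assembled variants of 7935 to 9224 bases that share a splice junction with it. The known transcript made up 83.8% of *Kcnn3* in jejunal SM tissue and 80.9% in colonic SM tissue. In colonic PDGFRα+ cells it made up 44.0%, at 104 FPKM, and the variants TCONS_00170932, TCONS_00175987 and TCONS_00181164 35.7%, 14.9% and 5.4%. TCONS_00175987 was listed at 0 in both SM tissues and in both SMC libraries, but at 35.1 FPKM in colonic PDGFRα+ cells, 6.94 in the library labelled jejunal PDGFRα+ cells, 0.850 in jejunal ICC and 0.225 in colonic ICC. The library labelled jejunal PDGFRα+ cells thus matched jejunal SM tissue in its *Kcnn3* total, 21.2 against 23.6 FPKM, but not in its variants, with 23.4% in the known transcript. Such shares are estimates by the assembler for transcripts that overlap over most of their length, and no interval comes with them. *P2ry1* had only 2 variants, of 3886 and 3701 bases from 1 start site, and they split nearly evenly in colonic PDGFRα+ cells, at 52.2 and 58.4 FPKM. The shorter one held 44.2% to 52.8% of *P2ry1* in 8 of the 10 libraries, the exceptions being jejunal ICC with 5.8% and the library labelled jejunal PDGFRα+ cells with 67.0%.

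**Figure D3:**
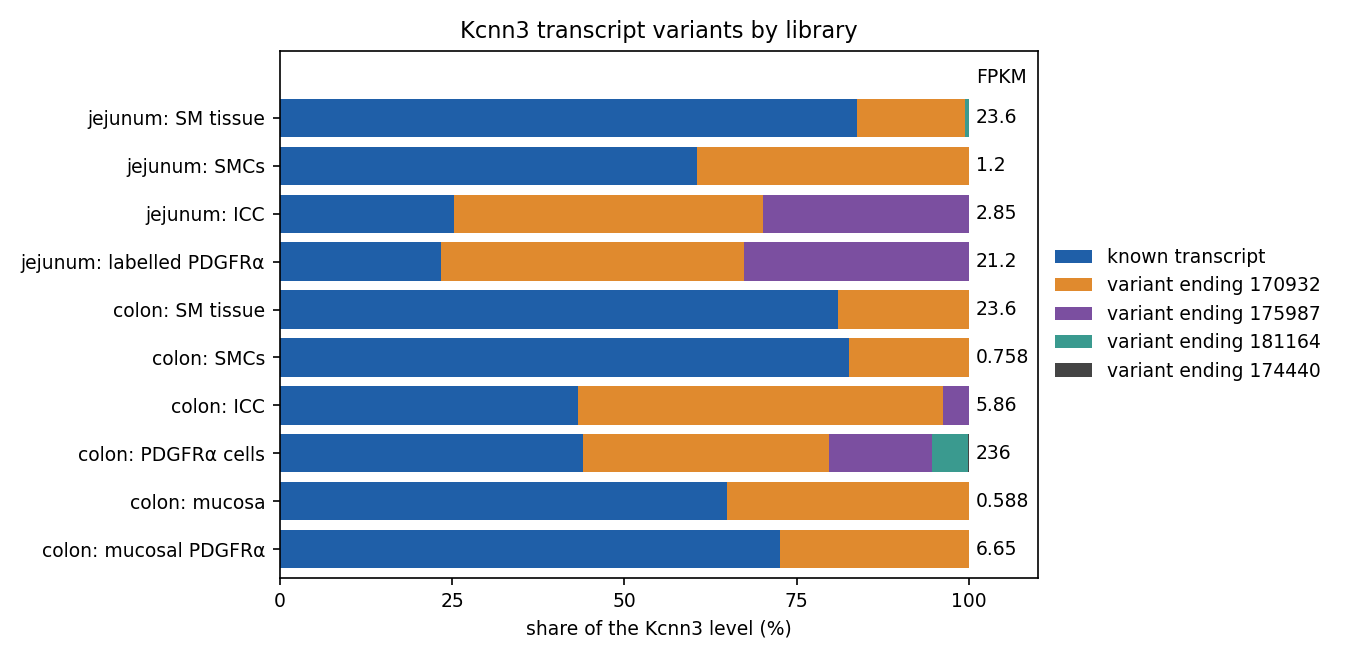
Share (%) of the transcript variants in the *Kcnn3* level of each library, with the total FPKM at the end of each bar. The known transcript holds 83.8% and 80.9% in the SM tissues but 44.0% in colonic PDGFRα+ cells, where the total is 236 FPKM.

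The second P2Y member, *P2ry14*, is the receptor for UDP-glucose and related UDP-sugars. It read 6.66 FPKM in jejunal SM tissue, 4.26 in jejunal SMCs, 0.611 in jejunal ICC and 8.64 in the library labelled jejunal PDGFRα+ cells. Colonic values were 8.91 FPKM in SM tissue, 23.2 in SMCs, 2.11 in ICC, 15.7 in PDGFRα+ cells, 5.17 in mucosa and 49.1 in mucosal PDGFRα+ cells. It was the opposite of *P2ry1* across the layers of the colon, 3.13-fold higher in mucosal than in muscle PDGFRα+ cells, while *P2ry1* was 11.6-fold lower. Colonic SMCs exceeded their tissue 2.61-fold, whereas jejunal SMCs were 1.56-fold below theirs. The gene, chr3:58918548-58934546 on the minus strand of NCBIM37, lies within *Med12l* on the plus strand, but their annotated exons share 0 bases. Counting by strand is not stated, and overlap of the assembled variants beyond these exons was not examined. *Med12l* was low, at 0.394 to 1.87 FPKM, and highest in the same mucosal PDGFRα+ cells.

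Over the 9 P2Y genes of the list used here, *P2ry1* made up 85.3% of 130 FPKM in colonic PDGFRα+ cells and 62.6% of 8.22 FPKM in colonic ICC. *P2ry14* was the largest part in SMCs, 74.3% in colon and 68.5% in jejunum, and in mucosal PDGFRα+ cells, 78.3%. *P2ry6*, a receptor for UDP, led in mucosa with 37.5%, at 11.0 FPKM. It was lower in all sorted muscle-layer libraries other than the one labelled jejunal PDGFRα+ cells, at 0.408 to 0.722 FPKM against 3.70 and 3.67 in the SM tissues.

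*P2rx4* encodes a P2X channel found on the surface and in lysosomes of many cell types. Its values were 9.06 FPKM in jejunal SM tissue, 3.53 in jejunal SMCs, 18.3 in jejunal ICC and 9.66 in the library labelled jejunal PDGFRα+ cells. In colon they were 11.5 FPKM in SM tissue, 4.59 in SMCs, 35.5 in ICC, 18.3 in PDGFRα+ cells, 63.2 in mucosa and 29.5 in mucosal PDGFRα+ cells. ICC were the highest of the muscle-layer libraries in each organ, 5.17-fold above SMCs in jejunum and 7.75-fold in colon. It was the only member higher in ICC than in tissue in both organs among those with 1 FPKM or more, 2.02-fold and 3.10-fold, both under the 4-fold used as threshold here. The known transcript held 71.5% to 96.2% of its level.

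*P2rx1* encodes the P2X channel known best from vascular and bladder muscle. Its values were low everywhere: 0.144 FPKM in jejunal SM tissue, 0.702 in jejunal SMCs, 0.699 in jejunal ICC and 0.243 in the library labelled jejunal PDGFRα+ cells. In colon they were 0.218 FPKM in SM tissue, 2.42 in SMCs, 0.435 in ICC, 1.10 in PDGFRα+ cells, 0.748 in mucosa and 1.43 in mucosal PDGFRα+ cells. Colonic SMCs were highest, with an estimated 336 fragments against 39.99 in colonic SM tissue. That 11.1-fold ratio of FPKM becomes 1.49 on the log2 scale once 1 FPKM is added to both, which is below 4-fold.

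*Entpd1*, the ectonucleotidase CD39, which takes ATP and ADP to AMP, was the member that differed most between the ICC of the organs. Its level was 24.3 FPKM in jejunal SM tissue, 20.7 in jejunal SMCs, 33.2 in jejunal ICC and 13.4 in the library labelled jejunal PDGFRα+ cells. In colon it was 9.59 FPKM in SM tissue, 10.7 in SMCs, 1.61 in ICC, 3.19 in PDGFRα+ cells, 5.92 in mucosa and 7.34 in mucosal PDGFRα+ cells. Jejunal ICC, the highest of the 10 libraries, and colonic ICC, the lowest, were 20.7-fold apart. In every pair of like libraries the colonic one was lower, by 2.53-fold in SM tissue and 1.92-fold in SMCs. The libraries labelled PDGFRα+ cells were 4.19-fold apart, and the jejunal one went against its label. SMCs of both organs were within 1.17-fold and 1.12-fold of their tissues. Vessels and macrophages also express *Entpd1*: the 10 endothelial markers summed to 15.2 FPKM in jejunal and 15.7 in colonic ICC, and the 12 macrophage markers with rows to 41.9 and 29.9. Jejunal ICC also carried pancreatic acinar transcripts, 160 FPKM over 10 genes against 4.83 in colonic ICC, and their part in the difference was not tested.

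*Entpd2* encodes an enzyme that prefers ATP over ADP and is known in the gut from glia and fibroblast-like cells. It stood at 11.6 FPKM in jejunal SM tissue, 1.94 in jejunal SMCs, 2.82 in jejunal ICC and 22.8 in the library labelled jejunal PDGFRα+ cells. The colonic values were 31.0 FPKM in SM tissue, 4.71 in SMCs, 4.65 in ICC, 42.9 in PDGFRα+ cells, 13.4 in mucosa and 12.5 in mucosal PDGFRα+ cells. SMCs and ICC of both organs were low, between 1.94 and 4.71 FPKM, and colonic PDGFRα+ cells were 9.11-fold above SMCs and 9.24-fold above ICC, but only 1.38-fold above SM tissue. The 8 enteric glia markers summed to 13.2 FPKM in colonic PDGFRα+ cells and to 107 in colonic SM tissue. In the other muscle-layer libraries the 2 went together: the glia markers summed to 8.22 to 17.5 FPKM in SMCs and ICC, where *Entpd2* was low, and to 81.0 in the library labelled jejunal PDGFRα+ cells against 65.3 in its tissue. The part of glia in the *Entpd2* levels was not tested. *Entpd2* shares 612 exon bases with *Npdc1* on the same strand of chromosome 2, and values of the pair may not be fully apart. *Npdc1* ranged from 37.9 to 95.4 FPKM and was likewise highest in colonic PDGFRα+ cells.

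Among the 4 surface NTPDases of the list, *Entpd2* was 91.5% of 46.9 FPKM in colonic PDGFRα+ cells, while *Entpd1* was 89.1% in jejunal SMCs, 87.7% in jejunal ICC and 66.3% in colonic SMCs. *Entpd3*, known from neurons, was low in SMCs, ICC and colonic PDGFRα+ cells, 0.565 to 1.82 FPKM against 8.03 and 10.2 in the SM tissues. *Entpd8*, an enzyme of epithelia, held 61.7% in mucosa.

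Each sorted library was compared with unsorted tissue of the same organ and layer by the ratio of FPKM + 1. A gene counted as apart at 4-fold or more. In colonic PDGFRα+ cells 2 of 8 members were 4-fold higher, *Kcnn3* with a log2 ratio of 3.27 and *P2ry1* with 2.84, where 2.08% of the 12990 genes tested were higher, and 0 were lower, where 6.18% were. They were the 39th and 81st of these genes in order of the ratio. In mucosal PDGFRα+ cells 2 of 7 members were higher than in mucosa, *P2ry14* at 3.02 and *Kcnn3* at 2.27 (background 5.5% higher), and 0 were lower (1.64%). That ratio of *Kcnn3* set 6.65 against 0.588 FPKM. The library labelled jejunal PDGFRα+ cells had 0 of 7 members higher and 0 lower, with backgrounds of 0.913% and 0.14%.

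SMCs and ICC had members lower than tissue and none higher. *Kcnn3* and *Entpd2* were 4-fold lower in jejunal SMCs, with log2 ratios of -3.48 and -2.10, and in colonic SMCs, with -3.81 and -2.49. These were 2 of 7 members in jejunum, where 3.48% of all genes were lower and 0.297% higher, and 2 of 8 in colon, where 5.3% were lower and 0.149% higher. In jejunal ICC *P2ry14* at -2.25 and *Kcnn3* at -2.67 were lower, 2 of 7 members, with 2.72% of all genes lower and 1.62% higher. In colonic ICC *Kcnn2* at -2.09, *Entpd1* at -2.02 and *Entpd2* at -2.50 were lower, 3 of 7 members, with 4.4% lower and 1.43% higher. *Entpd1* and *Kcnn2* lay just beyond the threshold of -2, and *Kcnn3* at -1.84 just short of it. The median log2 ratio of the members was -1.72 in jejunal and -1.84 in colonic ICC, against 0.04 and 0.14 over all genes, and 0.69 in colonic PDGFRα+ cells against -0.11.

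**Figure D4:**
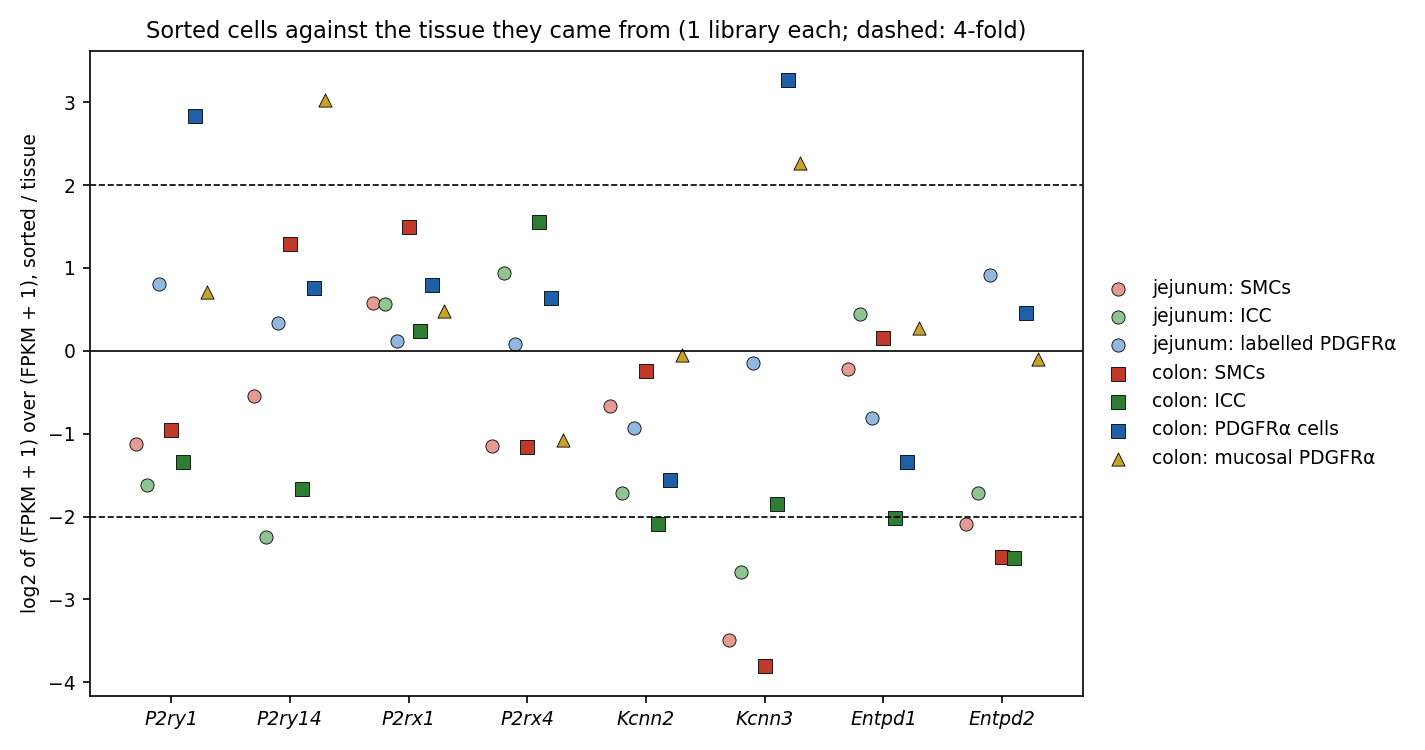
Log2 of (FPKM + 1) over (FPKM + 1) for the 8 genes in 7 sorted libraries against unsorted tissue of the same organ and layer, 1 point per library, with dashed lines at 4-fold. SMCs and muscle PDGFRα+ cells are listed under another mouse strain than that tissue. *Kcnn3* spans the widest range, from -3.81 in colonic SMCs to 3.27 in colonic PDGFRα+ cells, and the library labelled jejunal PDGFRα+ cells stays within the dashed lines for all 8 genes.

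Between cell types of the colon, 4 of 8 members were 4-fold higher in PDGFRα+ cells than in ICC: *Kcnn3* at 5.11, *P2ry1* at 4.18, *Entpd2* at 2.96 and *P2ry14* at 2.42. Of all genes 2.08% were higher and 2.44% lower, and 0 members were lower. Against SMCs the members higher were *Kcnn3* at 7.07, *P2ry1* at 3.79 and *Entpd2* at 2.94, 3 of 8 against 5.43% of all genes, and 0 were lower against 3.63%. Colonic ICC exceeded SMCs in *P2rx4* at 2.71, 1 of 8 against 4.5%, and were lower in *P2ry14* at -2.96 and *Entpd1* at -2.17, 2 of 8 against 2.57%. In jejunum *P2rx4* was again higher in ICC than in SMCs, at 2.09, 1 of 7 against 3.59%, and 0 were lower against 2.42%.

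The PDGFRα+ cells of the 2 layers of the colon allow a comparison at nearly equal *Pdgfra*, 230 FPKM in muscle and 228 in mucosa. *Kcnn3* was 35.5-fold lower in mucosal cells, a log2 ratio of -4.95, and *P2ry1* 11.6-fold lower, at -3.41. These 2 of 8 members compare with 3.11% of all genes lower, and 0 members were higher against 6.34% of all genes. By this ratio *Kcnn3* was the 28th from the bottom of 12711 genes. Per FPKM of *Pdgfra*, *Kcnn3* read 1.03 in muscle PDGFRα+ cells and 0.0292 in mucosal ones, and *P2ry1* 0.481 and 0.0417. *Entpd2* was 3.44-fold lower in mucosal cells, short of 4-fold on the scale of FPKM + 1. Markers of other cells differed between the layers too: the SMC markers summed to 2917 FPKM in the muscle cells and to 721 in the mucosal ones, the neuron markers to 63.3 and 1.76, and the epithelial markers to 26.9 and 2434. Their part in these differences was not tested. The 2 libraries stand in separate tables.

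**Figure D5:**
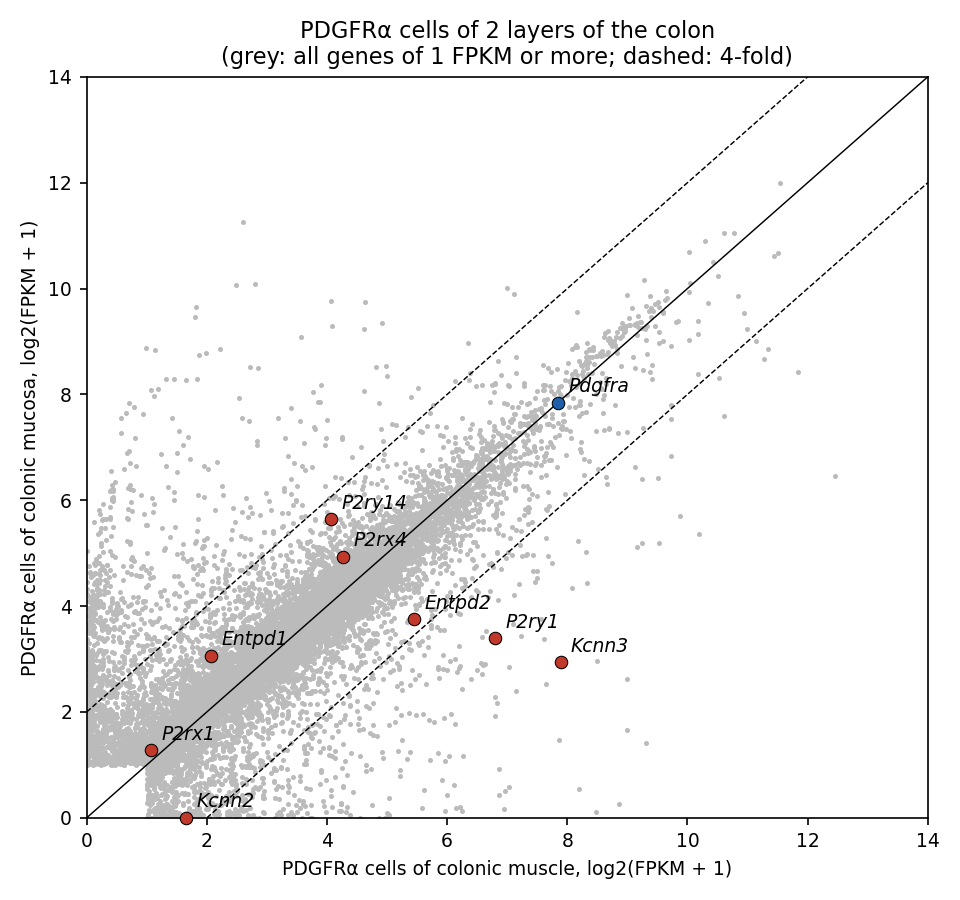
Log2(FPKM + 1) in PDGFRα+ cells of colonic muscle (horizontal) and of colonic mucosa (vertical), 1 grey point per gene of 1 FPKM or more in either library, the 8 members in red and *Pdgfra* in blue, with dashed lines at 4-fold. *Pdgfra* lies on the diagonal at 230 and 228 FPKM, while *Kcnn3* and *P2ry1* fall below the lower dashed line.

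Between the organs, 0 of 7 members were 4-fold apart in SM tissue, where 0.873% of all genes were, and *Kcnn3* was 23.6 FPKM in both. *P2ry1*, 4.03-fold higher in colonic SM tissue by FPKM alone, was at 1.75 on the log2 scale of FPKM + 1. Colonic SMCs exceeded jejunal SMCs in *P2ry14* at 2.20, 1 of 8 against 0.998%. By FPKM alone *P2ry14* was 5.46-fold and *P2ry1* 6.32-fold higher in colonic SMCs, but *P2ry1* was at 1.93 with 1 FPKM added, short of 4-fold. In ICC *P2ry1* was higher in colon at 2.03 and *Entpd1* lower at -3.71, 2 of 7 against 4.05%. *Pdgfra* differed 7.49-fold between the same ICC libraries, and the 7 fibroblast matrix genes summed to 3968 FPKM in colon and 567 in jejunum. The libraries labelled PDGFRα+ cells differed in *P2ry1* at 3.79 and *Kcnn3* at 3.41, 2 of 8 against 7.06%. This last comparison rests on the jejunal library that went against its label, and without it the count over the organs was 3 in place of 5.

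The rest of the pathway was read from fixed lists, whose genes were named where they reached 10 FPKM in any library or stood 4-fold from tissue in a sorted one. The counts below are for colonic PDGFRα+ cells against colonic SM tissue, where 2.08% of all genes were 4-fold higher and 6.18% lower, and with so few genes in a list they are descriptions. Of 7 genes for adenosine receptors and uptake, 5 were tested in colonic PDGFRα+ cells and 1 was 4-fold higher than in tissue: *Adora1*, the A1 receptor for the adenosine that is left when ATP has been degraded. It stood at 46.9 FPKM there, 3.84 in colonic SM tissue, 3.84 in ICC, 0.333 in SMCs and 0.138 in mucosal PDGFRα+ cells. Colonic PDGFRα+ cells were thus highest and SMCs lowest among the colonic muscle libraries, as for *Kcnn3*. *Adk*, the kinase that removes adenosine inside cells, was 3.84-fold above tissue at 95.5 FPKM.

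Of the 9 genes for Gq, phospholipase C and IP3 receptors, 0 of the 8 tested were 4-fold from tissue in colonic PDGFRα+ cells. *Itpr1*, the IP3 receptor that releases stored calcium, was 3.25-fold above tissue at 114 FPKM and *Itpr3* 3.05-fold at 23.8 FPKM. *Gnaq*, the Gq subunit, was at 16.3 FPKM there and at 32.3 in tissue. *Plcb4*, a phospholipase C, set the ICC of the organs apart, at 166 FPKM in colon and 3.26 in jejunum, and was 4.42-fold above and 8.04-fold below tissue.

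Of the 9 calcium-activated potassium channel genes, 7 were tested in colonic PDGFRα+ cells, where 1 was higher, *Kcnn3*, and 2 were lower, *Kcnma1* and *Kcnmb1*, the pore and a β subunit of the large-conductance BK channel. *Kcnma1* stood at 2.57 FPKM there against 32.8 in colonic SMCs, and *Kcnmb1* at 7.09 against 85.8. Both BK genes were thus lower in PDGFRα+ cells than in SMCs, as was *Kcnn2*, while *Kcnn3* was higher. *Kcnmb2*, another β subunit, was 4.81-fold higher in jejunal ICC than in tissue, at 19.4 FPKM.

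The 12 extracellular nucleotide enzymes had 0 of 9 tested higher and 2 lower in colonic PDGFRα+ cells, *Entpd3* and *Nt5e*. *Nt5e*, the ecto-5'-nucleotidase CD73 that makes adenosine from AMP, was at 31.5 FPKM in colonic SMCs and 33.3 in jejunal SMCs, but at 1.11 in colonic PDGFRα+ cells, 0.860 in colonic ICC and 2.09 in jejunal ICC. *Enpp1*, a surface pyrophosphatase that also splits ATP, was at 65.4 FPKM in colonic PDGFRα+ cells and 45.1 in colonic ICC against 25.7 in tissue. Of the 7 P2X genes 5 were tested there and 1 was lower, *P2rx2*, at 1.47 FPKM against 19.99 in tissue. *P2rx2* is known from neurons, and the 14 neuron markers summed to 63.3 and 822 FPKM in the same libraries. The part of neurons in the *P2rx2* difference was not tested. Of the 5 genes for ATP release all 5 were tested, with 0 higher and 1 lower, *Gja1*, the gap junction protein connexin 43, at 13.7 FPKM against 72.9. Of the 9 P2Y genes 5 were tested and 1 was higher, *P2ry1*, and all 4 intracellular NTPDases were within 4-fold.

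Among all 11319 genes listed in every table with 5 FPKM or more in a library, the 5 whose log2(FPKM + 1) over the 10 libraries was most like that of *Kcnn3* were *Brdt*, *Tceal6*, *Pid1*, *Cpxm1* and *Pla1a*, with Pearson's r of 0.972, 0.969, 0.969, 0.956 and 0.956. Those nearest *P2ry1* were *Cmklr1*, *Tm7sf3*, *Enpp2*, *Cdc42ep1* and *Colq*, with r of 0.913 to 0.927. All 10 peaked in colonic PDGFRα+ cells. *Kcnn3* and *P2ry1* stood 9.99-fold and 7.57-fold above their next library there, so this shared peak largely follows from choosing genes by r. *Entpd2* went with *Fbln2*, *Spon1*, *Abca8a*, *Cd34* and *Clec3b* (r of 0.932 to 0.955), of which *Cd34* is a marker of PDGFRα+ cells. *P2ry14* went with *Mmp23*, *Enho*, *Ecm1*, *Vipr2* and *Adamts2* (0.886 to 0.909), all highest in mucosal PDGFRα+ cells, as *P2ry14* was. That shared peak may likewise follow from choosing genes by r.

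The genes nearest *Kcnn2* were *Mbnl1*, *Tacr2*, *2210403K04Rik*, *Astn2* and *6330403A02Rik* (r of 0.936 to 0.965), and *Tacr2* is the neurokinin receptor of gut muscle. Nearest *P2rx4* were *Golgb1*, *Spcs3*, *Rabif*, *Sptlc1* and *Fam18b* (0.975 to 0.986), all highest in mucosa, as *P2rx4* was. Here too the shared peak may follow from choosing genes by r. *Entpd1* was followed by *Lmo4*, *Pde3b*, *Sod2*, *Fstl4* and *Colec10* (0.869 to 0.909). *P2rx1* had the weakest likeness, *Traf2*, *Hspa1b*, *Bop1*, *Lmna* and *Gadd45b* (0.762 to 0.820), 3 of them highest in colonic SMCs and 2 in mucosal PDGFRα+ cells. Of the 28 pairs of members, *P2ry1* with *Entpd2* was the closest, with r of 0.827, followed by *P2rx4* with *Kcnn2* at -0.794, *Kcnn3* with *Entpd2* at 0.773 and *P2ry1* with *Kcnn3* at 0.753. Without the library labelled jejunal PDGFRα+ cells these r were 0.860, -0.798, 0.762 and 0.765, so the order of the last 2 pairs turned. Spearman's rho of the same pairs over 10 libraries was 0.879, -0.758, 0.624 and 0.564, and by rho *P2ry1* with *P2ry14* came second, at 0.806 against an r of 0.590. The libraries differ in cell type, organ and purity, and all r share these differences.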

How the data were processed

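RNA of sorted cells and of unsorted tissue was extracted with a mirVana kit and made into TruSeq libraries (strand setting not given in the sources used here). According to the submitters' processing notes, the authors used mm9, TopHat 1.4.1, Cufflinks 2.0.2 and Cuffdiff. The deposited values are FPKM per transcript variant, in 3 tables (jejunum, colon, mucosa) with 1 library per group, and the deposited transcript length is in bases. Variants under 0.025 FPKM, the cutoff of the study's methods, were set to 0 here, and the rest summed per gene symbol. Libraries were compared as log2 of FPKM + 1, with genes of 1 FPKM or more in either library tested and 4-fold as threshold. The value of 1 fragment was estimated from low values of genes with 1 variant of 1500 bases or more, and is approximate. Likeness is Pearson's r of log2(FPKM + 1).

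The members and gene lists were chosen with earlier results of these data known. One list, of SK channel partners, is not reported here. Named were all members, genes of the other lists at 10 FPKM or 4-fold from tissue, and the 5 genes most like each member. Promoter sequences and motifs came from RefSeq on GRCm38.p6, with 250 bases before each start, and gene positions from NCBIM37 (gencode vM1). Alternatives were no cutoff or 0.1 FPKM, a pseudocount of 0.1, no filter or 10 FPKM, TPM, median ratio scaling and known transcripts alone. The calls and the fragment estimate were tested on simulated data. Tables were handled with pandas 2.3.3 and numpy 2.4.6 under Python 3.11.15, and plots were drawn with matplotlib 3.10.9.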

Additional observations from a re-analysis of the deposited data

Results flagged for a closer look

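In 3 cases the sorted cells of the organs stood on opposite sides of their tissue and at least 2-fold apart in that ratio. *Entpd1* in ICC was above tissue in jejunum (log2 ratio 0.44) and below it in colon (-2.02), a difference of 2.46. *P2ry14* in SMCs was below tissue in jejunum (-0.54) and above it in colon (1.29), a difference of -1.83. *Kcnn3* in the libraries labelled PDGFRα+ cells was near tissue in jejunum (-0.14) and above it in colon (3.27), a difference of -3.41, and the jejunal library went against its label. With 1 library each these differences were not tested.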

How the results depend on the processing

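Of the 31 member ratios of 4-fold or more, none turned in direction under any of the 8 alternatives, and all 31 stayed at 4-fold or more without the cutoff, with a cutoff of 0.1 FPKM, with a pseudocount of 0.1, without a filter and in TPM. The pseudocount of 0.1 added 11 ratios and TPM 8. Under both, 4 members were lower in jejunal ICC than in tissue, 1 was higher in colonic SMCs than in tissue, 2 were higher in colonic ICC than in SMCs, 1 was lower in jejunal ICC than in SMCs and 2 were apart between SMCs of the organs. The pseudocount also gave 4 members lower in colonic ICC than in SMCs. The filter of 10 FPKM removed 5 ratios, which left 1 lower in each ICC library, 1 higher in mucosal PDGFRα+ cells and 1 apart between ICC of the organs.

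Median ratio scaling moved the median of all genes by between -0.48 and 0.35 and took 3 ratios below 4-fold. *Entpd2* in jejunal SMCs (-1.96) left 1 member lower, *P2rx4* between jejunal ICC and SMCs (1.88) left 0 higher, and *P2ry1* between ICC of the organs (1.86) left 1 apart, while SMCs of the organs had 2, with *P2ry1* added, and *Kcnn2* was added between colonic ICC and SMCs. With known transcripts alone *Kcnn2* had no value, and 4 ratios fell below 4-fold: *P2ry14* in jejunal ICC (-1.56, 1 member lower), *Entpd1* in colonic ICC (-1.91), *P2ry14* between SMCs of the organs (1.96, 0 apart) and *P2ry1* between ICC of the organs (1.34, 1 apart). *Kcnn3* in colonic ICC then passed 4-fold, with 2.53 FPKM against 19.1 in tissue. The organ comparisons then held 3 calls in all, as they did without the library labelled jejunal PDGFRα+ cells, an alternative chosen after seeing the data. The cause was not tested. The highest library of each member was the same in TPM and, for the 7 with a value, with known transcripts alone. By Spearman's rho 0 to 4 of the 5 genes most like a member were retained, and 2 to 5 without the library labelled jejunal PDGFRα+ cells. The 8 member values under 100 estimated fragments were those of *P2rx1* in 5 libraries, *Kcnn2* in both mucosal libraries and *P2ry14* in jejunal ICC.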

Other observations

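Some list genes were highest in libraries other than colonic muscle PDGFRα+ cells. *Gja1* was at 962 FPKM in colonic ICC against 72.9 in tissue and at 839 in jejunal ICC against 212. It was at 231 FPKM in mucosal PDGFRα+ cells and at 13.7 in those of the muscle, the reverse of *Kcnn3* between the layers. *P2rx6*, another P2X gene, was at 8.35 FPKM in mucosal PDGFRα+ cells and at 0.643 in mucosa. *Slc17a9*, the vesicular nucleotide transporter, was highest in mucosa at 38.8 FPKM, as were *Cd38*, an enzyme that degrades NAD, at 65.3 and *Entpd5*, an intracellular NTPDase, at 44.1. Of the remaining list genes at 10 FPKM or more, 3 were highest in colonic ICC: *Slc29a1*, an adenosine transporter, at 117 FPKM, *Gjc1*, connexin 45, at 51.8 and *Entpd4*, an intracellular NTPDase, at 36.8. *Gjc1* was also at 18.2 FPKM in mucosal PDGFRα+ cells against 2.43 in mucosa. Mucosa was highest for *Plcb3*, a phospholipase C, at 65.6 FPKM, *Gna11*, a G protein subunit, at 64.3, *Entpd6* at 19.96, *Panx1*, an ATP release channel, at 12.4 and *Acpp*, an acid phosphatase, at 10.03. *Plcb1*, another phospholipase C, was at 16.1 FPKM in colonic SM tissue and at 11.6 and 0.481 in PDGFRα+ cells of muscle and mucosa. *Ada*, adenosine deaminase, was at 13.3 FPKM in the library labelled jejunal PDGFRα+ cells against 2.54 in its tissue. Each value is from 1 library, and no explanation was tested.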
